A study of Homo sapiens with 6 samples.

Results

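The 46 genes described here encode the proteasome: the subunits of its core and regulatory particles, its activators, its inhibitor and its assembly chaperones. They are the rows of the deposited table whose whole symbol is PSM, a letter from A to G and digits, 46 of 12793 rows. PSMC3IP and PSME3IP1, which carry further letters, are outside that rule, and 0 hyphenated read-through symbols of these genes were listed. RNA was measured in HCT15 cells, a long-established line from a human colorectal carcinoma, in 3 libraries labelled RBM15 knockout (CRISPR/Cas9 with a guide against RBM15, sgRBM15) and 3 control libraries (control guide, sgctrl, genotype WT). Cas9 cuts DNA at a guide-directed site, and RBM15 binds RNA and helps to recruit the enzyme complex for m6A, a methyl mark on adenosines in RNA. The labels give no guide position and do not say whether the edited cells were a pool or a clone, or whether replicate libraries stem from separate cultures. P-values therefore reflect the spread among these libraries alone, and that spread may be technical.

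The proteasome is the protease complex that degrades proteins tagged with ubiquitin. Its core particle, the 20S, is a barrel of outer alpha rings, which gate the entry, and inner beta rings, which hold the protein-cutting sites. The regulatory particle, the 19S, caps the barrel: a ring of ATPases unfolds substrates, further base subunits bind ubiquitin, and the lid removes the ubiquitin chain. Cells exposed to interferon replace the cutting subunits PSMB6, PSMB7 and PSMB5 by PSMB9, PSMB10 and PSMB8, which together make the immunoproteasome, a form known for cutting peptides shown to T cells by MHC class I molecules. In tumour cells the transcription factor NFE2L1 is known to raise the genes of core and regulatory particle together when proteasome activity falls short.

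RBM15, the targeted gene, was higher in the libraries labelled knockout. Its level was 17.3, 18.5 and 18.0 FPKM there and 5.97, 5.89 and 5.51 FPKM in the controls (log2 difference 1.48, SE 0.049, limma adjusted p = 3.88e-06; exact 2-sided permutation p = 0.1, the smallest that 3 against 3 libraries can give). FPKM is a fragment count divided by transcript length and library total. An mRNA level does not show whether Cas9 disrupted the protein, so each direction below rests on the labels: "rose" and "fell" are said of the libraries labelled knockout relative to the controls, at a limma adjusted p of at most 0.05 over all 11451 tested genes. Of 9 markers of colorectal epithelium 6 had a row, 1 higher and 4 lower, and summed to between 3132 and 3270 FPKM in the libraries labelled knockout and between 3353 and 3438 FPKM in the controls. KRT8 and KRT18 carried most of that sum. The intestinal genes VIL1 and CDX2 differed far more than the sum: VIL1 averaged 3.87 ± 0.222 FPKM in the libraries labelled knockout and 16.98 ± 0.168 FPKM in the controls (SD, n = 3 each, log2 difference -1.89). CDX2 averaged 9.52 ± 0.254 FPKM in the libraries labelled knockout and 20.9 ± 0.138 FPKM in the controls (SD, n = 3 each, log2 difference -1.06), a larger size than that of any proteasome gene, and EPCAM fell by 0.35. KRT20, CDX1 and LGR5 had no row. Of 6 leukocyte markers 3 had a row, 0 higher and 1 lower, and summed to between 38.7 and 40.7 FPKM in the libraries labelled knockout, against 46.4 to 48.1 FPKM in the controls, most of it CORO1A. PTPRC and CD3E, which define leukocytes and T cells, had no row. Of 4 fibroblast markers 1 had a row (0.835 to 1.41 FPKM in the libraries labelled knockout, 0.917 to 1.41 FPKM in the controls) and of 2 endothelial markers 0 had one. The part of these marker levels in the results was not tested. In bulk RNA, fewer cells of a kind and less RNA per cell cannot be told apart.

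Proteasome genes were abundant, and their levels differed by role. Together they made up between 1.01% and 1.09% of the summed FPKM of each library. Averaged over the 6 libraries, 12 of the 14 constitutive core genes lay between 113 and 249 FPKM, led by the beta genes PSMB4 at 249 FPKM and PSMB1 at 225 FPKM. The other 2, PSMA5 at 40.5 FPKM and PSMB2 at 41.0 FPKM, stood well below the rest of their rings. The 17 regulatory particle genes lay between 32.9 FPKM (PSMC1) and 137 FPKM (PSMD2), and the 7 assembly chaperones between 20.6 FPKM (PSMG4) and 68.6 FPKM (PSMG1). At the bottom were PSMB9 at 10.6 FPKM and PSMB10 at 11.1 FPKM, a pair whose values overlapped in both groups. The remaining immunoproteasome gene, PSMB8, was at 35.4 FPKM. PSMA8 and PSMB11, known from testis and thymus, had no row. All 46 genes passed the minimum mean of 1 FPKM.

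**Figure D1:**
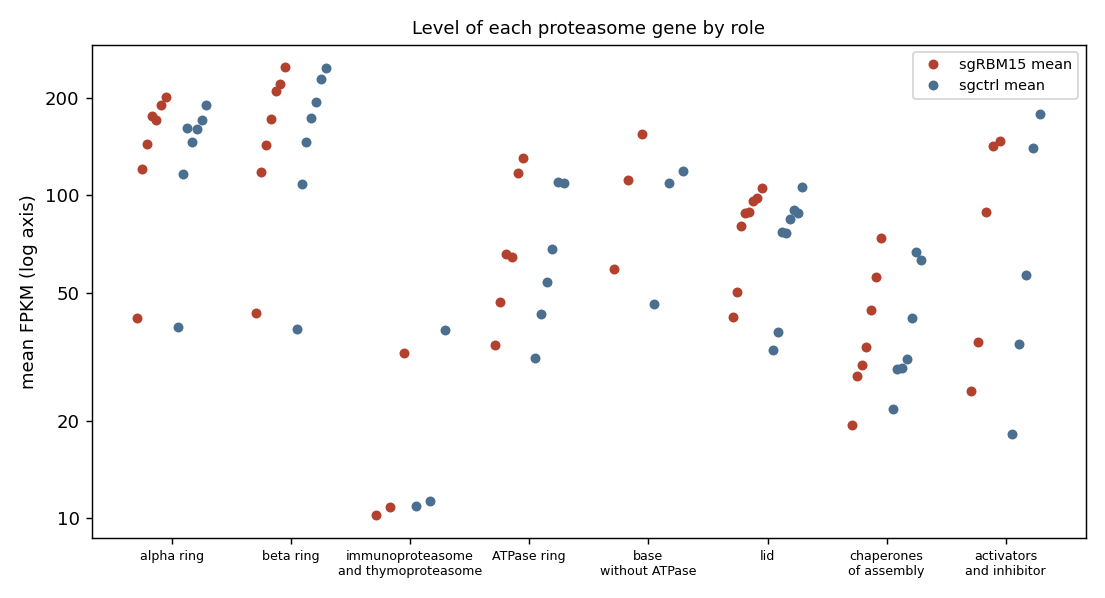
Mean FPKM of each proteasome gene (points, log axis) by role, for the libraries labelled RBM15 knockout (sgRBM15, left) and the controls (sgctrl, right), 3 libraries each. Core genes of the alpha and beta rings stand highest apart from PSMA5 and PSMB2, and PSMB9 and PSMB10 lowest at 10.2 to 11.3 FPKM.

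Of the 46 genes 19 rose, 4 fell and 23 were not called. Over all tested genes 54.5% were called, 25.3% higher and 29.2% lower, so the number called was near the background and the split between directions was not. The share higher was 41.3% and the share lower 8.70% among the proteasome genes. The count higher depended on the settings. Without a variance trend 14 of the 46 were higher and 3 lower, against 2836 higher and 3318 lower of 11451 genes. With quantile normalization 17 were higher and 3 lower, against 3367 higher and 2894 lower of 11451. Without sgRBM15 library 1, 13 were higher and 3 lower. The count higher was larger on the TPM scale (23) and with median centring (22), with 3 lower in each. The median log2 difference of the proteasome genes was 0.08, against -0.02 over all tested genes. With quantile normalization these medians were 0.062 and 0.025, and with median centring 0.111 and 0.009. Of the 46 differences 33 were positive, against 5436 of 11451 tested genes. Differences were small: the range was -0.28 to 0.63 on the log2(FPKM + 1) scale, and 0 reached 1. The values of the groups did not overlap for 26 of the 46 genes, 21 higher and 5 lower, against 63.0% of all tested genes (29.6% higher and 33.4% lower). Adjustment for GC content and transcript length, by removing a trend with both, gave 26 higher and 1 lower of the 46, and 3540 higher and 2685 lower of 11160 genes, where the unadjusted fit gave 2896 higher and 3349 lower of 11451. Under that adjustment 8 genes gained a call (PSMA1, PSMC5, PSMD3, PSMD4, PSMD7, PSMD10, PSMG3 and PSME2, all higher) and 4 lost theirs (PSMA4, PSMB8, PSMG2 and PSMG4). The part of GC content and length in the differences was not tested. Called in the fit and in all 15 alternatives tried were 12 higher genes (PSMA3, PSMB2, PSMC3, PSMC4, PSMD1, PSMD2, PSMD6, PSMD11, PSMD12, PSMD13, PSME3 and PSME4) and 1 lower gene (PSME1). Over all tested genes the share called was between 47.6% and 57.7% in the single alternatives. Genes called in every alternative were not counted over all tested genes, so the count of proteasome genes has no background.

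**Figure D2:**
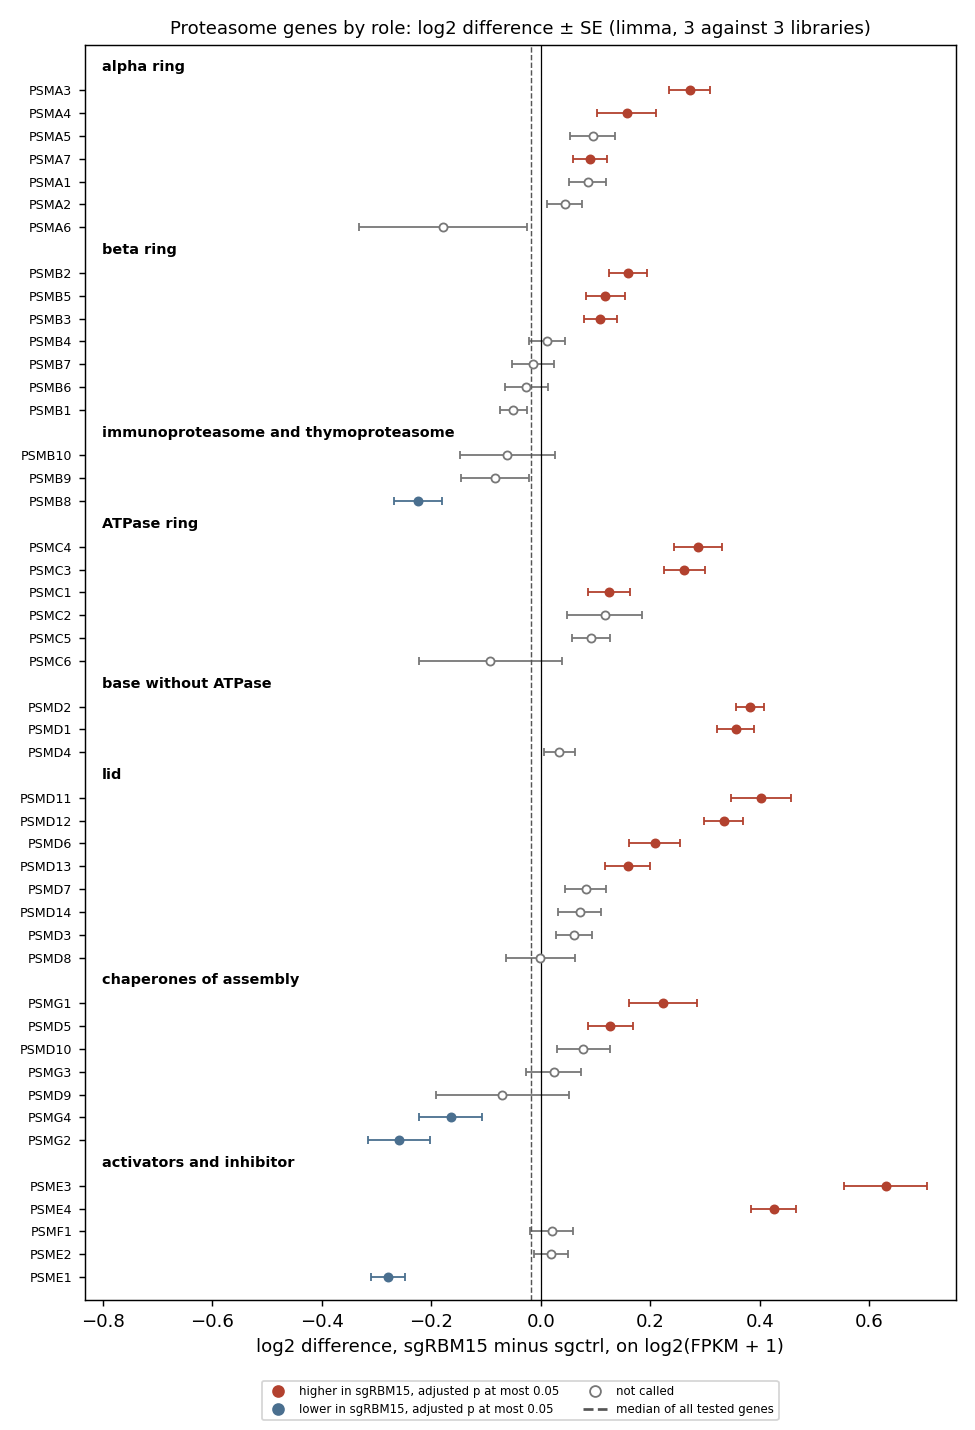
Log2 difference of each proteasome gene (points, with SE) between the 3 libraries labelled RBM15 knockout and the 3 controls, grouped by role; filled points passed an adjusted p of 0.05 and the dashed line is the median of all tested genes, -0.02. Differences run from -0.28 (PSME1) to 0.63 (PSME3), and 19 genes are called higher and 4 lower.

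Base genes without ATPase activity included 2 of the most clearly raised genes. PSMD2, which encodes the large scaffold subunit that docks ubiquitin-like domains, had 155, 157 and 153 FPKM in the libraries labelled knockout and 119.9, 117 and 119.7 FPKM in the controls. The groups lay far apart, with a ratio of 1.31 and a log2 difference of 0.38 (SE 0.026, adjusted p = 5.53e-05). PSMD2 (ENSG00000175166) lies on chromosome 3 at 184298709 to 184309054 in GRCh38. PSMD1, the other large scaffold, had 60.9, 57.4 and 59.1 FPKM in the libraries labelled knockout, against 46.5, 45.1 and 46.4 FPKM in the controls. All 3 values were above every control, a ratio of 1.29 and a log2 difference of 0.36 (SE 0.034, adjusted p = 2.05e-04). PSMD4, a ubiquitin receptor of the base, averaged 112 ± 2.45 FPKM in the libraries labelled knockout and 109 ± 1.4 FPKM in the controls (SD, n = 3 each) and was not called (log2 difference 0.03).

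In the lid 4 of 8 genes rose and 0 fell, beside 25.3% higher and 29.2% lower over all tested genes. PSMD11, a scaffold subunit of the lid, had 51.7, 51.9 and 47.5 FPKM in the libraries labelled knockout and 36.9, 40.4 and 36.3 FPKM in the controls. Its groups did not overlap, and its log2 difference of 0.40 (SE 0.054, adjusted p = 9.07e-04) was the largest among core and regulatory particle genes. PSMD12, another scaffold of the lid, had 41.7, 42.7 and 41.8 FPKM in the libraries labelled knockout and 34.3, 33.2 and 32.0 FPKM in the controls, without overlap (log2 difference 0.33, SE 0.036, adjusted p = 3.53e-04). PSMD6 rose by 0.21 and PSMD13 by 0.16 on the log2 scale. PSMD14, the enzyme that removes ubiquitin chains, averaged 89.0 ± 2.77 FPKM in the libraries labelled knockout and 84.7 ± 3.29 FPKM in the controls (SD, n = 3 each), and its log2 difference of 0.07 was not called (adjusted p = 0.166). Its partner PSMD7 (0.08), PSMD3 (0.06) and PSMD8 (-0.001) were not called either. PSMD13 shares 316 bp of exon with SIRT3 on the opposite strand, whose log2 difference was -0.33, and counting by strand is a setting not given in the sources used here.

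Of the 6 ATPase genes, whose products form the unfolding ring, 3 rose and 0 fell (all tested genes: 25.3% higher and 29.2% lower). PSMC4 had 63.7, 68.1 and 66.0 FPKM in the libraries labelled knockout and 54.2, 51.2 and 56.1 FPKM in the controls (log2 difference 0.29, SE 0.044, adjusted p = 0.00151). PSMC3 had 127, 134 and 131 FPKM in the libraries labelled knockout and 105, 108 and 114 FPKM in the controls (log2 difference 0.26, SE 0.038, adjusted p = 0.00117). Neither gene's groups overlapped, and adjusted for GC content and length the differences were 0.43 for PSMC4 and 0.42 for PSMC3. PSMC1 rose by 0.12, a call lost with the replicate number as a block (adjusted p = 0.0541) and when sgRBM15 library 1 (0.0596), sgRBM15 library 3 (0.0733), sgctrl library 1 (0.0838) or sgctrl library 3 (0.0574) was left out. PSMC1 also shares 4671 bp of exon with NRDE2 on the opposite strand and has 13 named pseudogenes in GENCODE 29, so its value can depend on how reads were divided. PSMC5 (0.09), PSMC2 (0.12) and PSMC6 (-0.09) were not called. PSMC5 shares 874 bp of exon with FTSJ3 on the opposite strand, which rose by 0.59. PSMC6, shown after its values were seen, had a wide spread, with 77.6, 53.4 and 62.4 FPKM in the libraries labelled knockout and 62.4, 67.6 and 74.4 FPKM in the controls.

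Of the 14 constitutive genes of the core particle 6 rose and 0 fell, with a median log2 difference of 0.09. In the regulatory particle 9 of 17 rose and 0 fell, with a median of 0.12. The shares called, 42.9% in the core and 52.9% in the regulatory particle, were below the 54.5% of all tested genes. Over all tested genes 25.3% were higher and 29.2% lower. Over the 15 alternatives the core count was between 2 and 8 and the regulatory count between 8 and 13. The core count was 2 without sgRBM15 library 1 or without a variance trend. It was 3 without sgctrl library 1 or sgctrl library 2, and 8 on the TPM scale or with median centring. The difference between the particles was not tested. In the alpha ring PSMA3 had 181, 176 and 174 FPKM in the libraries labelled knockout and 149.7, 150.0 and 139 FPKM in the controls, without overlap (log2 difference 0.27, SE 0.038, adjusted p = 0.00102). PSMA4 had 197, 180.3 and 194 FPKM in the libraries labelled knockout and 163, 166 and 183 FPKM in the controls. Here the lowest value of the libraries labelled knockout lay below the highest control, and the difference of 0.16 (adjusted p = 0.0434) missed the threshold under 7 of 15 alternatives. These were the omission of sgRBM15 library 1 (adjusted p = 0.122), sgRBM15 library 3 (0.114), sgctrl library 1 (0.123) or sgctrl library 2 (0.119), quantile normalization (0.0713), no variance trend (0.0720) and adjustment for GC content and length (0.0508). PSMA7 rose by 0.09 (0.25 with that adjustment), a call lost under 8 alternatives with adjusted p between 0.0644 and 0.136.

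PSMA6, shown after its values were seen, was the most variable alpha gene. It had 115, 175 and 145 FPKM in the libraries labelled knockout and 143, 162 and 182 FPKM in the controls, and was not called (log2 difference -0.18, SE 0.153). GENCODE 29 annotates a gene on the same strand, AL121594.1, that shares 919 bp of exon with PSMA6. Its row had 21.8, 2.69 and 14.0 FPKM in the libraries labelled knockout and 7.41, 5.07 and 1.06 FPKM in the controls, so the library with the least PSMA6 had the most of this overlapping gene and the one with the most PSMA6 had the least. The sum of both rows was 137, 178 and 159 FPKM in the libraries labelled knockout and 151, 167 and 183 FPKM in the controls. Same-strand overlaps with a listed gene also touch PSMA1, PSMA2, PSMB10 and PSMD9.

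In the beta ring 3 of 7 genes rose and 0 fell (all tested genes: 25.3% higher and 29.2% lower). The count that rose was 1 without sgRBM15 library 1 or without a variance trend. PSMB2 had 44.0, 42.0 and 44.0 FPKM in the libraries labelled knockout and 38.5, 38.0 and 39.7 FPKM in the controls, without overlap (log2 difference 0.16, SE 0.035, adjusted p = 0.00763). PSMB5, which holds the chymotrypsin-like cutting site and is the target of bortezomib, had 119.2, 119.0 and 116 FPKM in the libraries labelled knockout and 104, 111.3 and 111.1 FPKM in the controls. Its groups did not overlap, but the difference of 0.12 (SE 0.036, adjusted p = 0.0279) missed the threshold without a variance trend (adjusted p = 0.0605), with a replicate block (0.0563) and without sgRBM15 library 1 (0.0788), sgRBM15 library 2 (0.0747) or sgctrl library 1 (0.0669). With adjustment for GC content and length it was 0.24. PSMB3 rose by 0.11 (0.25 with that adjustment), a call lost under 6 alternatives (adjusted p between 0.0562 and 0.131). PSMB6, which holds the caspase-like site, had 140.3, 146 and 145 FPKM in the libraries labelled knockout and 145, 154 and 139.7 FPKM in the controls. PSMB7, which holds the trypsin-like site, had 168, 175 and 175 FPKM in the libraries labelled knockout and 167, 182 and 174 FPKM in the controls. Neither PSMB6 nor PSMB7 was called, and their groups overlapped.

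All 3 immunoproteasome genes had negative differences, a sign shared by many genes, since 5436 of 11451 tested genes had positive ones. Of the 3 genes 1 was called, against 54.5% of all tested genes. PSMB8, the counterpart of PSMB5, had 33.7, 32.2 and 31.7 FPKM in the libraries labelled knockout and 39.9, 38.1 and 36.6 FPKM in the controls. The groups did not overlap, and the log2 difference was -0.23 (SE 0.044, adjusted p = 0.00446). With adjustment for GC content and length it was -0.12 and no longer called (adjusted p = 0.0567). PSMB9, the counterpart of PSMB6, had 9.92, 10.3 and 10.4 FPKM in the libraries labelled knockout and 11.6, 11.1 and 9.96 FPKM in the controls (log2 difference -0.08, adjusted p = 0.284). PSMB10, the counterpart of PSMB7, had 12.3, 10.4 and 9.80 FPKM in the libraries labelled knockout and 11.6, 11.9 and 10.51 FPKM in the controls (log2 difference -0.06, adjusted p = 0.574). PSMB9 and PSMB10 overlapped between groups. With adjustment for GC content and length the difference was -0.044 for PSMB9 and 0.155 for PSMB10, neither called. PSMB8 and PSMB9 lie beside each other on chromosome 6, PSMB8 at 32840717 to 32844703 on the minus strand and PSMB9 at 32844136 to 32859585 on the plus strand, and share 139 bp of exon.

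Each immunoproteasome gene was also set against its constitutive counterpart within each library, 3 pairs in all. The log2 ratio of PSMB8 over PSMB5 was -1.82, -1.89 and -1.87 in the libraries labelled knockout and -1.38, -1.54 and -1.60 in the controls. Every ratio of the libraries labelled knockout was below every control, by -0.35 on average (exact 2-sided permutation p = 0.1, the smallest possible, and 0.3 adjusted over the 3 pairs). For PSMB9 over PSMB6 the mean log2 ratio was -3.81 ± 0.013 in the libraries labelled knockout and -3.75 ± 0.092 in the controls (SD, n = 3 each, exact permutation p = 0.2, adjusted 0.3). For PSMB10 over PSMB7 it was -4.00 ± 0.201 in the libraries labelled knockout and -3.94 ± 0.1 in the controls (SD, n = 3 each, exact permutation p = 0.7, adjusted 0.7). With 3 libraries per group none of these tests can pass 0.05.

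The activators showed the widest contrast of any role. PSME3 encodes the activator PA28 gamma, a nuclear ring that opens the core without ATP or ubiquitin. It had 84.0, 101 and 81.6 FPKM in the libraries labelled knockout and 55.7, 56.8 and 57.8 FPKM in the controls, a ratio of 1.56. No values overlapped, though sgRBM15 library 2 stood above its 2 partners, and the log2 difference of 0.63 (SE 0.076, adjusted p = 5.49e-04) was the largest of the 46 genes. It ranged from 0.54 to 0.69 when single libraries were left out. PSME3 (ENSG00000131467) lies on chromosome 17 at 42824385 to 42843758 and shares 300 bp of exon with BECN1 on the opposite strand, whose log2 difference was 0.01. PSME4 encodes PA200, a large nuclear activator linked to histone breakdown. It had 24.5, 24.0 and 26.0 FPKM in the libraries labelled knockout and 18.0, 18.2 and 18.4 FPKM in the controls, without overlap (ratio 1.36, log2 difference 0.43, SE 0.041, adjusted p = 2.10e-04). PSME4 (ENSG00000068878) lies on chromosome 2 at 53864067 to 53970840.

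PSME1 and PSME2 encode the alpha and beta subunits of PA28, the interferon-inducible activator that the 2 proteins build together. PSME1 had 144, 147 and 150.0 FPKM in the libraries labelled knockout and 175, 176 and 185 FPKM in the controls. The groups were clearly apart and the log2 difference was -0.28 (SE 0.032, adjusted p = 4.10e-04), the lowest of the 46 genes. With adjustment for GC content and length it was -0.14 and still called (adjusted p = 0.0147). PSME2 had 141.9, 142 and 143 FPKM in the libraries labelled knockout and 139, 137 and 145 FPKM in the controls, which overlapped (log2 difference 0.02, adjusted p = 0.631). The FPKM ratio of PSME1 over PSME2 was 1.02, 1.03 and 1.05 in the libraries labelled knockout and 1.26, 1.29 and 1.27 in the controls. PSMF1, the inhibitor PI31, had 35.0, 35.8 and 34.6 FPKM in the libraries labelled knockout and 33.4, 34.4 and 36.1 FPKM in the controls, and was not called (log2 difference 0.02). PSME1 and the ratio of PSME1 to PSME2 were chosen for full values after they had been seen, and the ratio was not tested.

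**Figure D3:**
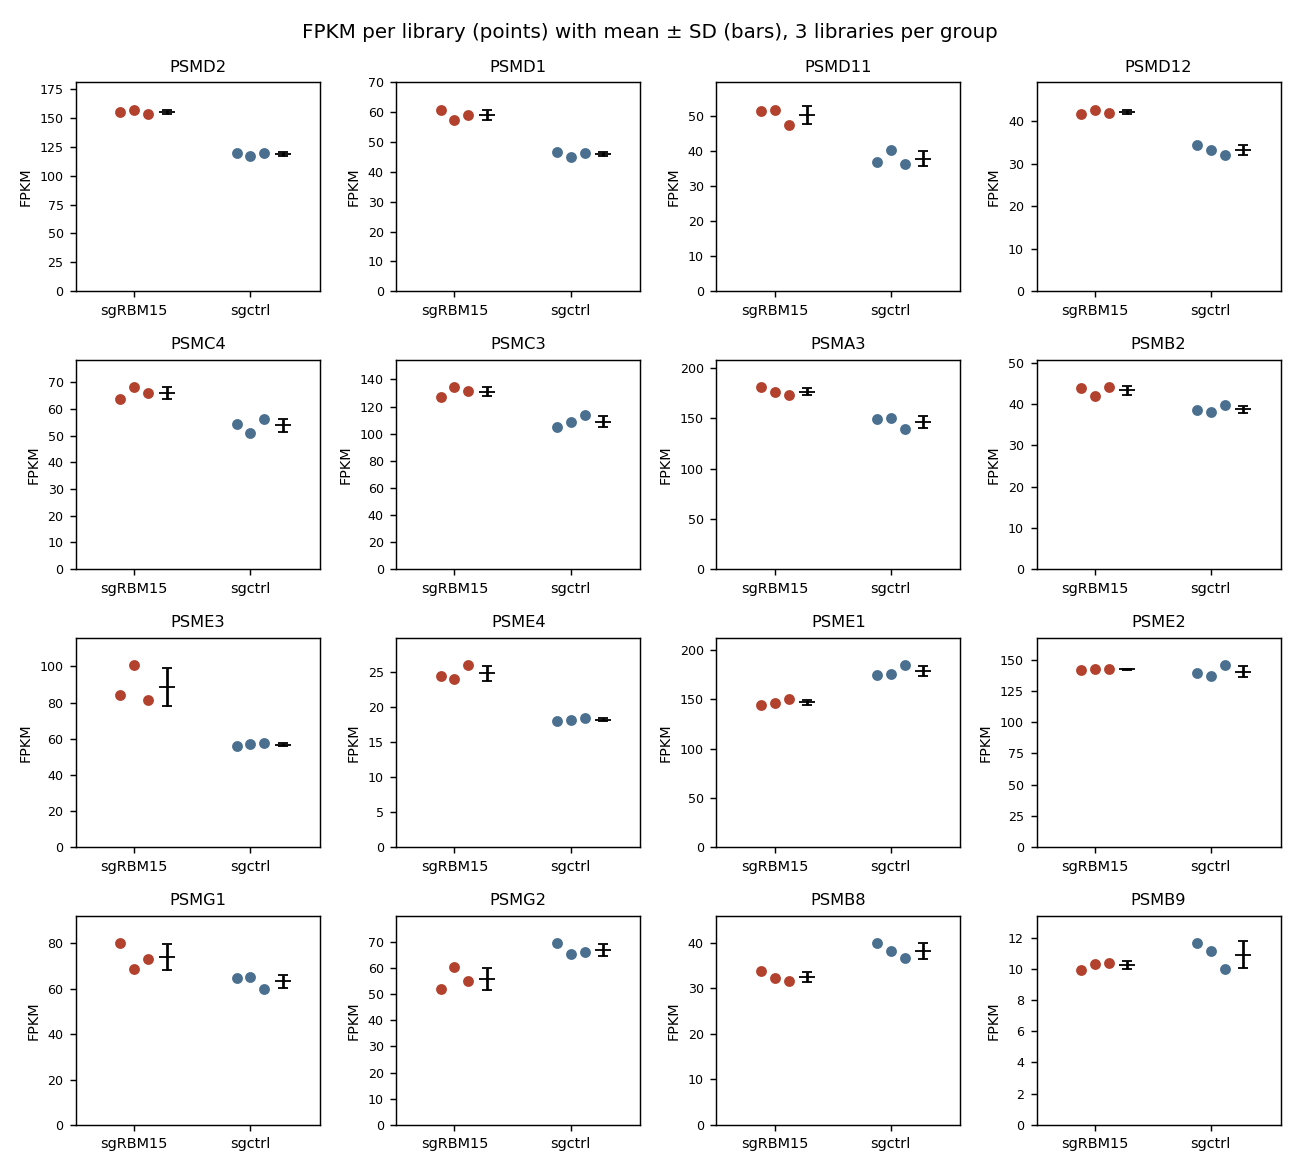
FPKM of 16 proteasome genes in each library (points) with mean and SD (bars), 3 libraries labelled RBM15 knockout (sgRBM15, left) and 3 controls (sgctrl, right) per panel, axes from 0. PSMD2, PSMD1, PSMD11, PSMD12, PSMC4, PSMC3, PSMA3, PSMB2, PSME3, PSME4 and PSMG1 lie higher and PSME1, PSMG2 and PSMB8 lower in the libraries labelled knockout without overlap, while PSME2 and PSMB9 overlap. Most panels show called genes, so the lack of overlap partly reflects that choice. No overlap was seen for 26 of the 46 proteasome genes and 63.0% of all tested genes.

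The 3 called genes with the largest differences were PSME3, PSME4 and PSMD11, and their promoters are shown for that reason. PSME3 and PSME4 are activators and PSMD11 is a lid gene. The windows are from RefSeq (GRCh38.p14), 250 bases before to 50 after the start that RefSeq gives, read 5′ to 3′ on the strand of the gene. PSME3 is on the plus strand at chr17:42833147-42833446, PSME4 on the minus strand at chr2:53970944-53971243 and PSMD11 on the plus strand at chr17:32444260-32444559. The RefSeq start of PSME3 lies 9012 bases downstream of its first GENCODE 29 base, that of PSMD11 249 bases downstream, and that of PSME4 at -153, upstream. Positions below count from the RefSeq start. Capitals mark matches on either strand to 4 motifs: TGACNNNGC, the core of the antioxidant response element that NFE2L1 and NFE2L2 bind, CCAAT, the GC box GGGCGG, and TTCNNNGAA, the gamma-interferon activated site.
PSME3: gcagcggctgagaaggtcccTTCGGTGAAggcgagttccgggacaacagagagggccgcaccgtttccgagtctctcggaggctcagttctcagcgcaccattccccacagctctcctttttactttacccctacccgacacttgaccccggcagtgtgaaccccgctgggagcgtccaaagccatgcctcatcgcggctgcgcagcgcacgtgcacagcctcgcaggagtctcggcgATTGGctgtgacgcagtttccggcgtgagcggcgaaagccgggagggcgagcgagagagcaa
PSME4: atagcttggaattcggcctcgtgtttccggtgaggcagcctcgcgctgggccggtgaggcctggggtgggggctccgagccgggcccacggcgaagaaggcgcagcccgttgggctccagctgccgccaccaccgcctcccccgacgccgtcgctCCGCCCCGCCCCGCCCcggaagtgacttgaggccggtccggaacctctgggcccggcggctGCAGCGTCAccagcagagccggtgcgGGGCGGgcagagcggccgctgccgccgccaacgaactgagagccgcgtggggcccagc
PSMD11: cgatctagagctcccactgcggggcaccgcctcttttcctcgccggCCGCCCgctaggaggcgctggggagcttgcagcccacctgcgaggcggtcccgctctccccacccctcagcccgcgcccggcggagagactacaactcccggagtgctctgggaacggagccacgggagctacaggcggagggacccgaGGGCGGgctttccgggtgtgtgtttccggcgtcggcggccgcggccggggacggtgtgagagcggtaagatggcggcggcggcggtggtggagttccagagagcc

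The PSME3 window held a TTCNNNGAA match at position -230 and a CCAAT match on the opposite strand at -12. The PSME4 window held a TGACNNNGC match on the opposite strand at -34 and GGGCGG matches at -95, -90 and -85 on the opposite strand, each sharing 1 base with the next, and at -8. PSMD11 held GGGCGG matches at -204 on the opposite strand and at -55. Windows were found for 40 of the 46 proteasome genes, 49 windows in all since some genes have several starts. TGACNNNGC was present in 15 of the 49 windows (30.6%), against 14.5% of 13305 windows of tested genes, and CCAAT in 19 (38.8%), against 35.2%. GGGCGG was present in 34 windows (69.4%), against 68.0%, and TTCNNNGAA in 7 (14.3%), against 6.08%. By gene, TGACNNNGC was found in 8 of 18 raised genes with a window and in 7 of the other 22. A match is a run of letters and not a measured binding site.

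Chaperones of assembly went in both directions, 2 higher and 2 lower of 7 (28.6% each). These shares were near those over all tested genes, 25.3% higher and 29.2% lower. The higher count was 0 without sgctrl library 3, 1 without sgRBM15 library 1, sgRBM15 library 2, sgctrl library 2 or a variance trend, and 4 with adjustment for GC content and length. The lower count was 1 when any 1 library was left out and 0 with that adjustment. PSMG1 and PSMG2 encode the partners of a heterodimer that guides assembly of the alpha ring. PSMG1 had 80.1, 68.8 and 73.3 FPKM in the libraries labelled knockout and 64.8, 65.2 and 59.7 FPKM in the controls, without overlap (log2 difference 0.22, SE 0.062, adjusted p = 0.0198). The call was lost without sgctrl library 3 (difference 0.18, adjusted p = 0.0613). PSMG2 had 52.1, 60.4 and 55.1 FPKM in the libraries labelled knockout and 69.5, 65.4 and 66.1 FPKM in the controls, also without overlap but in the other direction (log2 difference -0.26, SE 0.057, adjusted p = 0.00755). Adjustment for GC content and length left -0.14, which was not called (adjusted p = 0.0879). The FPKM ratio of PSMG1 over PSMG2 was 1.54, 1.14 and 1.33 in the libraries labelled knockout and 0.932, 0.997 and 0.904 in the controls, a ratio chosen after these values were seen and not tested.

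PSMG2 (ENSG00000128789, chromosome 18 at 12658043 to 12725740) shares 468 bp of exon with CEP76 and 92 bp with SPIRE1 on the opposite strand, with log2 differences of 0.14 and 0.04. PSMG3 and PSMG4, another chaperone pair, had log2 differences of 0.02 and -0.16. PSMG4 was called only narrowly (adjusted p = 0.0464) and the call was lost under 12 of 15 alternatives, including the omission of any library, with adjusted p between 0.0514 and 0.130. It shares 1388 bp of exon with SLC22A23 and 174 bp with TUBB2B on the opposite strand, with log2 differences of -0.20 and 0.38. PSMD5, a chaperone of the ATPase ring, rose by 0.13, a call lost without a variance trend (adjusted p = 0.0538) and without sgRBM15 library 1 (0.0980), sgRBM15 library 2 (0.104), sgctrl library 2 (0.0920) or sgctrl library 3 (0.104). Its fellow chaperones PSMD10 (0.08) and PSMD9 (-0.07) were not called.

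Summed over genes, the constitutive core reached 2198, 2227 and 2193 FPKM in the libraries labelled knockout and 2089, 2143 and 2145 FPKM in the controls, a ratio of 1.04. The regulatory particle summed to 1463, 1431 and 1413 FPKM in the libraries labelled knockout and 1261, 1279 and 1308 FPKM in the controls, a ratio of 1.12. Neither pair of sums overlapped, and the values of 63.0% of single tested genes did not overlap between groups either. The regulatory sum divided by the core sum was 0.666, 0.643 and 0.644 in the libraries labelled knockout and 0.604, 0.597 and 0.610 in the controls, also without overlap. The 3 immunoproteasome genes summed to 56.0, 53.0 and 51.9 FPKM in the libraries labelled knockout, against 63.2, 61.2 and 57.1 FPKM in the controls. Most of that gap lay in PSMB8, which averaged 32.55 FPKM in the libraries labelled knockout and 38.22 FPKM in the controls. The values of PSMB9 and PSMB10 overlapped between groups. These sums describe the members and were not tested.

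**Figure D4:**
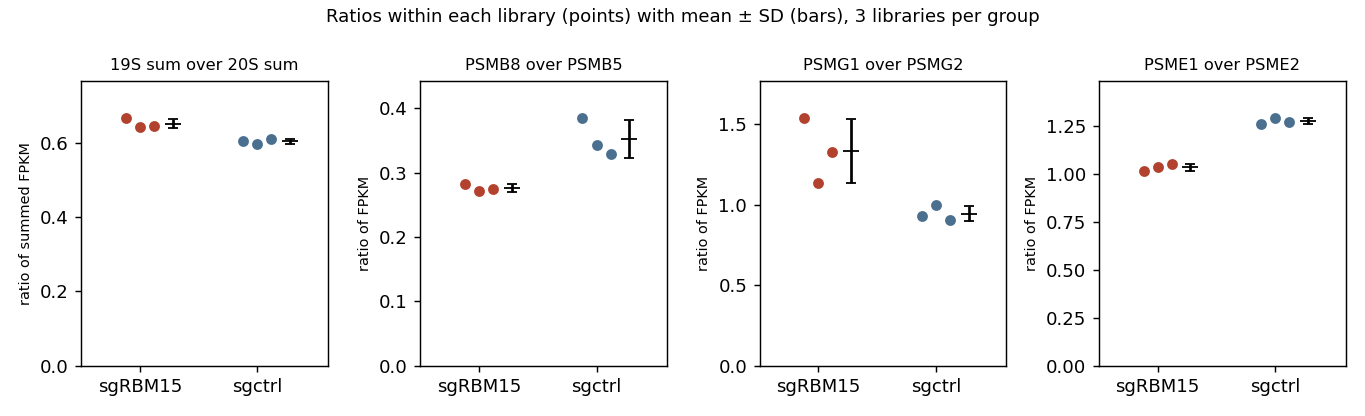
Ratios within each library (points) with mean and SD (bars) for the 3 libraries labelled RBM15 knockout (sgRBM15, left) and the 3 controls (sgctrl, right), axes from 0: summed FPKM of 17 regulatory over 14 constitutive core genes, and FPKM of PSMB8 over PSMB5, PSMG1 over PSMG2 and PSME1 over PSME2. The groups do not overlap in any panel drawn. The libraries labelled knockout are higher in regulatory over core sum and PSMG1 over PSMG2, and lower in PSMB8 over PSMB5 and PSME1 over PSME2. PSMB9 over PSMB6 and PSMB10 over PSMB7, the other tested pairs, overlap and are not drawn. PSMG1 over PSMG2 and PSME1 over PSME2 were picked with the values already known, so their lack of overlap partly reflects that choice. Among all tested genes, 63.0% also show no overlap between groups.

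Genes of the pathway outside the rule were taken from 6 lists with 47 tested genes, of which 20 rose and 11 fell (66.0% called, against 54.5% of all tested genes). The background for each list is the same, 25.3% higher and 29.2% lower over all tested genes. Among 8 other subunits and bound proteins 4 rose and 1 fell. UCHL5, a deubiquitinase of the regulatory particle, had 50.8, 52.8 and 53.0 FPKM in the libraries labelled knockout and 37.2, 35.1 and 38.1 FPKM in the controls (log2 difference 0.49, SE 0.040, adjusted p = 1.05e-04), and its receptor in the base, ADRM1, rose by 0.19. The difference of ADRM1 was 0.45 with adjustment for GC content and length. UBE3C, a ubiquitin ligase that acts on the proteasome, rose by 0.33. Of 5 assembly and import factors 2 rose and 3 fell. POMP, the chaperone that completes the core particle, had 101, 99.7 and 98.2 FPKM in the libraries labelled knockout and 79.7, 78.7 and 80.6 FPKM in the controls, without overlap (log2 difference 0.32, SE 0.028, adjusted p = 1.35e-04). PAAF1, which binds the ATPase ring during assembly, fell by 0.43, and IPO9, an import receptor, rose by 0.23 (0.14 with adjustment for GC content and length).

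Of 7 genes around NFE2L1, 4 rose and 1 fell. The small MAF genes MAFG and MAFK, whose products pair with NFE2L1 on DNA, rose by 0.41 and 0.36 on the log2 scale (0.54 for MAFK with adjustment for GC content and length), and DDI2, the protease that activates NFE2L1, rose by 0.34. The called fall was that of NFE2L1 itself, which averaged 34.9 ± 0.799 FPKM in the libraries labelled knockout and 38.2 ± 0.6 FPKM in the controls (SD, n = 3 each, log2 difference -0.13, limma adjusted p = 0.0154). NFE2L1 is named here although 4 genes of its list had larger differences. Its call was not followed over the 15 alternatives, so its stability is unknown. Of 6 ubiquitin and E1 genes 2 rose and 2 fell. The ubiquitin-activating enzyme genes UBA6 and UBA1 rose by 0.35 and 0.20.

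Shuttle factors and VCP genes rose in 6 and fell in 3 of 14 cases. VCP, the ATPase that extracts ubiquitinated proteins, rose by 0.39 and its cofactor gene UFD1 by 0.31. Other genes of the list did not all follow, and some are named here outside the rule. FAF2 rose by 0.19, NSFL1C fell by 0.28, and NPLOC4 (0.006) and FAF1 (-0.04) were not called. Of 7 interferon-linked genes around the immunoproteasome 2 rose and 1 fell, with IRF9 among those that rose (by 0.24) and STAT2, a transcription factor of the interferon response, the one that fell (by 0.24). IRF9 averaged 2.30 ± 0.179 FPKM in the libraries labelled knockout and 1.80 ± 0.173 FPKM in the controls (SD, n = 3 each). It lost its call with a replicate block (adjusted p = 0.0804) and without sgRBM15 library 2 (0.119), sgRBM15 library 3 (0.106), sgctrl library 1 (0.1002) or sgctrl library 2 (0.126), and had 0.38 with adjustment for GC content and length. TAP1, beside PSMB9, had 23.7, 23.5 and 22.3 FPKM in the libraries labelled knockout and 21.8, 21.7 and 22.8 FPKM in the controls and was not called (log2 difference 0.065). It is named for its position, after its value was seen.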

How the data were processed

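RNA-seq of 6 HCT15 libraries was analysed, 3 per group by title and genotype label, with columns matched to libraries by name. Per the labels' protocols, total RNA was extracted with TRIzol and VAHTS Universal V6 libraries were read from both ends on a NovaSeq instrument. The submitters' processing notes name HISAT2 2.2.1, StringTie 2.0.4 and the build hg38. The authors deposited FPKM, per the file headers. Settings, annotation, strand use and row filter were choices not given in the sources used here. Column sums ran from 402288 to 415057 FPKM. Values below 0.5 FPKM showed no common step (at most 0.93% of their ratios fell within any 0.1% window), so whole reads could not be recovered and depth is unknown. Values of overlapping genes and pseudogene copies can depend on how reads were divided between them.

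Genes averaging 1 FPKM or more over all libraries were tested on log2(FPKM + 1), which understates changes of low genes, with limma 3.58.1 (variance trend, 2 groups, no covariate) in R 4.3.3, 2-sided, with Benjamini-Hochberg adjustment over 11451 genes. Within-library ratios were tested with exact permutation tests over 20 assignments. On simulated data for this comparison (11451 genes in the step) 86.6% of genes changed by 1.5-fold, 89.6% by 2-fold and 100.0% by 4-fold were called. Of 11251 unchanged genes 8 were called. The changes were set on the log2(FPKM + 1) scale in 200 genes, whereas 54.5% of tested genes were called in the data. Except for PSME3 (ratio 1.56), the proteasome genes changed by less than the smallest simulated fold. The simulation therefore does not show how often changes of their size are called. Coordinates, overlaps, GC content and the length of the longest transcript came from GENCODE 29 (GRCh38), which matched 46 of the 46 members. Tables were made in Python 3.11.15 with numpy 2.4.6, pandas 2.3.3 and scipy 1.17.1, and plots with matplotlib 3.10.9.

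The members and lists were chosen with earlier results of these data known. Full values were given for the 2 called genes with the largest difference in each role, for the immunoproteasome genes with their counterparts and for PSMF1, and up to 3 called genes were named per pathway list. Exceptions are stated where they occur, and a few genes this rule names are not reported here. Alternatives were a pseudocount of 0.1, no filter, a mean of at least 5 FPKM, a common sum per library (TPM scale), quantile normalization, median centring, the replicate number as a block, no variance trend, removal of a loess trend on GC content and length, and leaving out each library.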

Additional observations from a re-analysis of the deposited data

How the results depend on the processing

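The count of proteasome genes called was 23, and between 16 and 20 when single libraries were left out. The higher calls were 19, and between 13 and 17 when single libraries were left out. Over all tested genes the share called fell less, from 54.5% to between 47.6% and 49.4%. Without sgRBM15 library 1, 16 of the 46 proteasome genes were called, against 48.3% of all tested genes. Without sgctrl library 3, 17 of the 46 were called, against 48.0%. Without sgRBM15 library 2, 20 of the 46 were called, against 49.4%. The 4 lower calls became 1 with adjustment for GC content and length. Over all tested genes the lower calls went from 3349 of 11451 to 2685 of 11160 with it. Of the pathway genes outside the rule 31 were called, and the 11 lower calls became 7 with that adjustment and ranged from 7 to 10 when single libraries were left out. RBM15 kept its direction and call under all 15 alternatives. The replicate numbers did not pair the libraries (correlations of same-numbered deviations -0.035, -0.037 and 0). With a replicate block 19 proteasome genes were called, and 50.5% of all tested genes. In 690 comparisons of a proteasome gene with an alternative, 595 kept direction and call, 51 lost and 18 gained a call, and 26 changed sign, the last among genes with no call. On the TPM scale PSMB7 was 0.011 and PSMD8 0.023. With median centring PSMB6 was 0.0012, PSMB7 0.014 and PSMD8 0.027. With adjustment for GC content and length PSMB1 was 0.015, PSMB10 0.155, PSMB6 0.124, PSMB7 0.10 and PSMD8 0.148. Leaving out single libraries gave differences from -0.1484 to 0.003 for PSMB10, -0.0114 to 0.029 for PSMB4, -0.0591 to 0.01 for PSMB6, -0.0441 to 0.018 for PSMB7, -0.2322 to 0.0335 for PSMC6, -0.0631 to 0.0557 for PSMD8, -0.1722 to 0.04 for PSMD9, -0.0004 to 0.0441 for PSME2, -0.0055 to 0.0505 for PSMF1 and -0.014 to 0.0487 for PSMG3. For the log2 ratio of PSMB10 over PSMB7 the range was -0.167 to 0.025. The causes of these changes were not tested. Depth is unknown, so precision rests on 3 libraries per group.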
